A study of Mus musculus with 2 samples.

Results

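The 8 genes described here, Vwf, Itgb3, Selp, Gp9, Cd9, Pf4, Itga2b and Gp1bb, are named for platelets and their precursors, and they were followed through hematopoietic stem and progenitor cells. They were chosen by name, 8 of the 31053 genes in the count matrix, and all 8 had at least 1 unique molecular identifier (UMI, a label that counts 1 captured RNA molecule) in the cells kept. The cells were LSK cells (lineage-negative, Sca-1-positive, c-Kit-positive bone marrow cells, the compartment that holds the stem cells) of C57BL/6JRj mice. The study describes an old group aged 22 to 28 months and a young group aged 3 to 5 months, with 4 mice in each group and 1 library per group. Both groups were sorted in the same way and read by CITE-Seq, which counts mRNA together with antibody-derived tags, here for CD150, CD48 and CLCA3A1, the last through a fluorophore on a secondary antibody. The labels name no allele and no drug for either group. The mice behind a library cannot be told apart in the counts.

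Barcodes end in the suffix 1 or 2, and no label says which suffix is the old and which the young library. No comparison of ages was therefore made, and the 2 libraries are given side by side by suffix. Of 4688 cells, 4068 had under 10% mitochondrial UMIs and over 1500 genes, and 3986 of these also had tag counts, 1497 with suffix 1 and 2489 with suffix 2. No barcode sequence was shared between the libraries in the matrix. The cells were split at the 75th percentile of the CD150 tag and the 25th percentile of the CD48 tag of their own library. This gave 172 and 383 CD150-high CD48-low cells with suffix 1 and suffix 2 (the SLAM gate for long-term stem cells), 204 and 250 CD150-low CD48-low cells, 209 and 241 CD150-high CD48-high cells, and 912 and 1615 CD150-low CD48-high cells.

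Platelets come from megakaryocytes, and megakaryocytes share several surface proteins and regulators with stem cells. von Willebrand factor and P-selectin sit in granules and are released or displayed when a platelet is activated, platelet factor 4 is a chemokine of the alpha granule, the integrin chains αIIb and β3 pair into the fibrinogen receptor, and GPIbβ and GPIX belong to the receptor complex for von Willebrand factor. CD9 is a tetraspanin, abundant on platelets and also present on many other cells. Stem cells with Vwf mRNA are known in mice as a platelet-biased fraction, and CD41, the product of Itga2b, appears on early hematopoietic cells before the megakaryocyte lineage is set apart.

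Stretches of 120 bases before the transcription start are shown for Pf4, Gp9 and Selp, because these genes differed in how they followed the tags and because these windows did not overlap an annotated transcript. The bases are from RefSeq (GRCm38.p6), written 5′ to 3′ on the strand of the gene, which is the plus strand in each case. Capitals mark GATAA, the core read by GATA factors, and GGAAG, a core read by ETS factors such as PU.1 and FLI1, or their reverse complements TTATC and CTTCC.
Pf4, chr5:90772315-90772434: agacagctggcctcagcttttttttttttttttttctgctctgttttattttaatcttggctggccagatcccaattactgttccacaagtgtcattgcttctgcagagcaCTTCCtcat
Gp9, chr6:87777950-87778069: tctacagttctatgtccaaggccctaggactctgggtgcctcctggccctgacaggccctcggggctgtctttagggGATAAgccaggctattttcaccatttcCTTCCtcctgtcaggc
Selp, chr1:164115144-164115263: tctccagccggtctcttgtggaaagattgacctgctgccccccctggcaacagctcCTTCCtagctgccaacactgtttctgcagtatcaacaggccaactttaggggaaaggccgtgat

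The Gp9 stretch held GATAA 43 bases and CTTCC 16 bases before the start, and the Pf4 stretch held CTTCC 9 bases before it. The Selp stretch held CTTCC 64 bases before the start and no GATAA. Over the whole window of 300 bases (250 before and 50 after the start), Pf4 also held GATAA at base 38 after the start, so that Pf4 and Gp9 had both letters. Both occurred in 17.2% of the 32851 RefSeq windows, GATAA or its complement in 25.4%, and GGAAG or its complement in 71.4%. These matches describe the letters and are not binding sites. Vwf and Itgb3 had no entry in the promoter table.

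On the mouse genome GRCm38, Vwf spans chr6:125546774-125686679 and Cd9 chr6:125460266-125494791, on opposite strands of the same chromosome region, and Gp9 lies at chr6:87778072-87779768. Pf4 spans chr5:90772435-90773383 and Selp chr1:164115264-164150026. Both integrin genes are on chromosome 11, Itga2b at chr11:102453297-102470122 and Itgb3 at chr11:104608000-104670476. Gp1bb, at chr16:18620317-18622403, overlaps Sept5 (chr16:18620502-18629954) on the same strand, and reads in the shared part cannot be given to 1 of the genes with certainty.

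The CD150-high CD48-low cells had higher levels of most stem cell markers than CD150-low CD48-high cells. Of 10 stem cell markers, 7 were at least 2-fold higher in both libraries, with Mllt3 at 6.35-fold in suffix 1 and 8.49-fold in suffix 2 and Hoxb5 at 10.5-fold and 8.51-fold. Cd34, Flt3 and Cd48, which mark cells that have left the stem cell state, were lower in both. The 10 stem cell markers summed to 1447 and 1828 CPM in the SLAM gate, against 1529 and 1693 in the CD150-low CD48-low gate, so that this sum was not highest in the SLAM gate of suffix 1. Slamf1 and Cd48 encode proteins that the tags read. Mature megakaryocyte and platelet markers were sparse. Of 8, Gp6, Tubb1 and Myl9 had 0 UMIs in the gate in both libraries, Ppbp had 4 and 2 UMIs, and the summed level of the list was 20.9 CPM (counts per 1000000 UMIs) in suffix 1 and 12.9 in suffix 2, against 4.76 to 19.1 in the other gates of suffix 1 and 12.2 to 24.7 in those of suffix 2. The SLAM gate thus had the highest sum of suffix 1. Of the markers present, Treml1 was at 8.62 (3.32 to 22.6) and 1.56 (0.854 to 2.69) of its CD150-low CD48-high level, and Clec1b, a receptor of platelets, at 15.7 (3.35 to 96.8) and 11.3 (5.87 to 22.7), in suffix 1 from 6 and 3 UMIs. Gp5 was at 4.10 (2.33 to 7.03) and 0.378 (0.203 to 0.648). Gp1ba was at 2.85 (0.661 to 9.61) and 0.837 (0.291 to 1.98), and Ppbp at 1.74 (0.428 to 5.28) and 0.308 (0.036 to 1.19). The median over the 4 markers with enough UMIs was 3.48 in suffix 1 and 0.607 in suffix 2. Endothelial cells also make Vwf and Selp. Of 8 endothelial markers, Stab2 had 0 UMIs in the gate in both libraries and Cdh5 had 0 and 1, while Kdr and Tie1, which stem cells can also carry, were at least 2-fold higher than in CD150-low CD48-high cells in both. The Kdr ratio of suffix 1, 2.16 (0.853 to 4.84), came from 8 UMIs in the SLAM gate. Pecam1 went the other way in both, at 0.570 (0.439 to 0.730) and 0.628 (0.537 to 0.731). The summed level of this list was 139 CPM in the SLAM gate of suffix 1, above its other gates (106 to 121), and 145 in that of suffix 2, whose other gates had 111 to 145. The 7 erythroid markers summed to 30.2 and 79.9 CPM in the SLAM gate, against 27.2 to 94.5 in the other gates of suffix 1 and 54.1 to 213 in those of suffix 2. Klf1 was at 0 in the gate of suffix 1 and at 0.199 (0.0235 to 0.750) of its CD150-low CD48-high level in suffix 2. Hbb-bs was at 2.16 (0.853 to 4.84) and 4.09 (2.47 to 6.67) of its level there. Car1 was at 0.979 and 0.00919, from 1 UMI in the SLAM gate of each library. The part of these cells in the results was not tested.

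Median depth per cell was 12917 and 13477 UMIs in the SLAM gate (suffix 1 and suffix 2), 11943 and 11203 in the CD150-low CD48-low gate, 19922 and 15595 in the CD150-high CD48-high gate, and 16356 and 16320 in the CD150-low CD48-high gate. Levels are therefore given as CPM, the UMIs of a gene summed over the cells of a gate per 1000000 UMIs of the same cells. With 1 library per group there is no replicate, no test was possible, and every interval given (95%, exact Poisson for a CPM, exact conditional binomial for a ratio, Clopper-Pearson for a share) covers counting error only. The gates do not sit at equal amounts of tag. The CD150 boundary was 40 tags in suffix 1 and 407 in suffix 2, and the CD48 boundary 224 and 42, so that a gate of the same name is not the same population in both libraries.

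**Figure D1:**
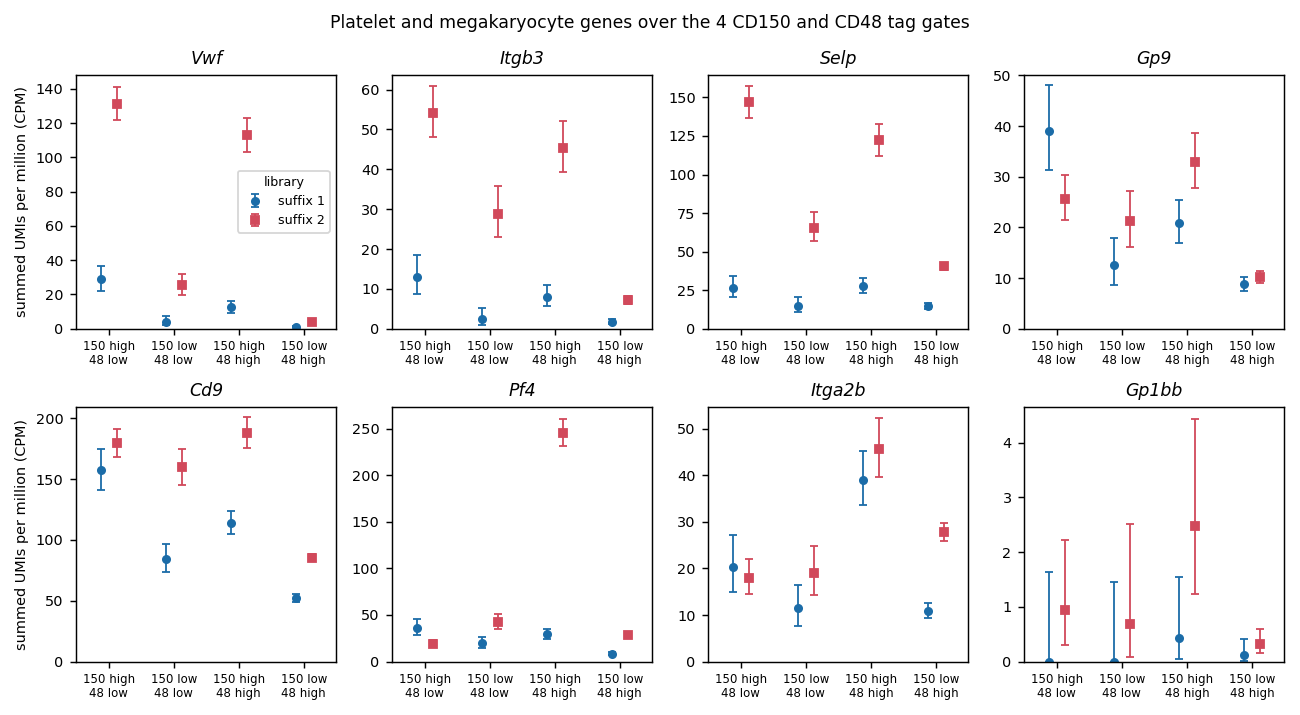
CPM of each gene (y axis, UMIs per 1000000 UMIs, summed over the cells of a gate, one scale per panel, starting at 0) in the 4 tag gates (x axis), with circles for suffix 1, squares for suffix 2 and bars for 95% Poisson intervals. Vwf, Itgb3 and Selp were highest in the 2 CD150-high gates of suffix 2, Pf4 reached 245 CPM in the CD150-high CD48-high gate of suffix 2, and Gp1bb stayed under 2.5 CPM.

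Vwf followed the CD150 tag most closely of the 8 genes. In suffix 1 it measured 28.9 CPM (22.3 to 36.8) in CD150-high CD48-low cells, 12.5 (9.46 to 16.1) in CD150-high CD48-high, 3.96 (1.90 to 7.28) in CD150-low CD48-low and 1.19 (0.737 to 1.82) in CD150-low CD48-high cells. In suffix 2 the same gates held 131 (122 to 141), 113 (103 to 123), 25.4 (19.9 to 31.9) and 4.18 CPM (3.49 to 4.97). The order of the gates was the same in both libraries. In suffix 1 no neighbouring intervals overlapped, and in suffix 2 those of the 2 CD150-high gates did. The ratio of the SLAM gate to the CD150-low CD48-high gate was 24.2 (14.6 to 41.8) in suffix 1 and 31.4 (26.0 to 38.2) in suffix 2.

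Itgb3, the β3 chain of the fibrinogen receptor and of the vitronectin receptor, had the same order of gates in both libraries. It measured 12.9 CPM (8.62 to 18.5) in the SLAM gate of suffix 1, 7.95 in CD150-high CD48-high, 2.37 in CD150-low CD48-low and 1.81 in CD150-low CD48-high cells. In suffix 2 the values were 54.1 (48 to 60.8), 45.4, 28.8 and 7.20 CPM. Intervals of the 2 CD150-high gates overlapped in both libraries, and so did those of the 2 CD150-low gates in suffix 1. The ratio of the SLAM gate to the CD150-low CD48-high gate was 7.10 (4.14 to 12.1) in suffix 1 and 7.52 (6.29 to 9.0) in suffix 2.

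Selp, which encodes P-selectin, showed a wider gap between libraries than between most gates. In suffix 1 it measured 26.6 CPM (20.3 to 34.3) in the SLAM gate, 27.9 in CD150-high CD48-high, 15 in CD150-low CD48-low and 14.9 in CD150-low CD48-high cells. In suffix 2 it measured 147 (137 to 157), 122, 65.6 and 40.6 CPM, with no overlap of intervals. The lowest gate of suffix 2 thus lay above the highest gate of suffix 1. The SLAM gate exceeded the CD150-low CD48-high gate 1.79-fold (1.33 to 2.38) in suffix 1 and 3.62-fold (3.30 to 3.96) in suffix 2.

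Gp9, which encodes GPIX, was at 39.1 CPM (31.3 to 48.1) in the SLAM gate of suffix 1, against 20.8 in CD150-high CD48-high, 12.7 in CD150-low CD48-low and 8.79 in CD150-low CD48-high cells. In suffix 2 the SLAM gate held 25.6 CPM (21.5 to 30.3), the CD150-high CD48-high gate 32.8, the CD150-low CD48-low gate 21.2 and the CD150-low CD48-high gate 10.1. The first place went to a different CD150-high gate in each library, although in suffix 2 the intervals of these gates overlapped. Against the CD150-low CD48-high gate the SLAM gate was 4.45-fold higher (3.38 to 5.81) in suffix 1 and 2.53-fold higher (2.05 to 3.1) in suffix 2.

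Cd9, the tetraspanin, was found in most cells of every gate of suffix 2, and in 52.2% or more of the cells of every gate of suffix 1. It measured 157 CPM (141 to 174), 114, 84.3 and 52.4 in the SLAM, CD150-high CD48-high, CD150-low CD48-low and CD150-low CD48-high gates of suffix 1, with no overlap of intervals. In suffix 2 these gates held 180 (168 to 191), 188, 160 and 85.5 CPM, and the CD150-low CD48-high gate alone stood apart from its neighbour. The ratio of the SLAM gate to that gate was 3.00 (2.65 to 3.40) in suffix 1 and 2.10 (1.95 to 2.26) in suffix 2.

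Pf4 followed the Vwf order of gates in suffix 1 and not in suffix 2, and Itga2b in neither. Pf4, which encodes platelet factor 4, measured 36.4 CPM (29.0 to 45.2), 29.4, 19.8 and 8.62 in the SLAM, CD150-high CD48-high, CD150-low CD48-low and CD150-low CD48-high gates of suffix 1. In suffix 2 the values were 19.2 (15.6 to 23.3), 245 (231 to 260), 42.4 (35.2 to 50.6) and 28.9 CPM (27.0 to 30.8), so the SLAM gate had the highest value of suffix 1, with an interval that overlapped that of the CD150-high CD48-high gate, and the lowest of suffix 2. The first place in suffix 1 rested on few cells, since 5 cells held 51.2% of the UMIs of the SLAM gate, and without the 5 highest cells of each gate it measured 18.3 CPM against 20.9 in CD150-high CD48-high cells. The ratio of the SLAM gate to the CD150-low CD48-high gate was 4.23 (3.19 to 5.56) in suffix 1 and 0.664 (0.535 to 0.816) in suffix 2.

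Itga2b, which encodes CD41, was highest in CD150-high CD48-high cells of both libraries, though in suffix 2 this rested on few cells. Without the 5 highest cells of each gate it measured 26.9 CPM there against 26.3 in CD150-low CD48-high cells. It measured 20.4 CPM (15 to 27.2) in the SLAM gate, 39.1 (33.6 to 45.2) in CD150-high CD48-high, 11.5 in CD150-low CD48-low and 10.8 in CD150-low CD48-high cells of suffix 1. In suffix 2 it measured 18.0 (14.6 to 22.0), 45.7 (39.6 to 52.4), 19.1 and 27.8 (25.9 to 29.7) CPM. The SLAM gate held 0.522 (0.369 to 0.725) of the CD150-high CD48-high level in suffix 1 and 0.395 (0.306 to 0.506) in suffix 2. Without the 5 highest cells of each gate, the SLAM gate measured 16.4 CPM against 31.8 in suffix 1 and 16.2 against 26.9 in suffix 2. Against the CD150-low CD48-high gate the ratio was 1.89 (1.34 to 2.61) in suffix 1 and 0.650 (0.520 to 0.804) in suffix 2. These opposite directions were not seen with the same tag boundaries in both libraries, where the ratios were 1.09 and 1.01. The suffix 1 ratio came from 6 UMIs in 33 SLAM gate cells, 15.2 CPM (5.57 to 33.1) against 14.0 (12.5 to 15.5). These are too few to fix its direction.

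Gp1bb, which encodes GPIbβ, was almost absent from the counts. It had 4 UMIs in suffix 1 and 28 in suffix 2 over all kept cells with tags. None of the 172 SLAM gate cells of suffix 1 had one, and 3 counts of the gate total would be 1.33 CPM, so a lower level was not detectable at this depth. In suffix 2 it measured 0.949 CPM (0.308 to 2.22) in the SLAM gate and 2.47 (1.24 to 4.43) in CD150-high CD48-high cells, from 5 and 11 UMIs. No order of its gates can be read from these counts.

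Set against all genes, 4 of the 7 members with at least 10 UMIs in each library over the cells compared (Vwf, Itgb3, Gp9 and Cd9) were at least 2-fold higher in the SLAM gate than in CD150-low CD48-high cells in both libraries, where 6.19% of 12789 genes were. None of the 7 was 2-fold lower in both, where 6.29% of genes were, and Gp1bb had too few UMIs. Over the alternatives the count was 3 to 6. With the same tag boundaries, and with both tags split at the 50th percentile, Pf4 and Selp also passed, Pf4 under the same boundaries through 1 cell (1.38 in suffix 2 without it). Cd9 was lost under centred log ratios of the tags, with a mean over cells, without the 10% of cells with the most UMIs and with stricter tag percentiles, and Gp9 under the last. The member ratios had a median of 4.23 in suffix 1 and 2.53 in suffix 2, beside 0.993 and 0.968 over all genes. The cells of both gates also differed in stem cell markers, in depth and in B and plasma cell markers. The 5 markers of the last kind summed to 42.6 and 124 CPM in the SLAM gate (suffix 1 and suffix 2), against 552 and 5040 in CD150-low CD48-high cells. The part of those differences in the member ratios was not tested.

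**Figure D2:**
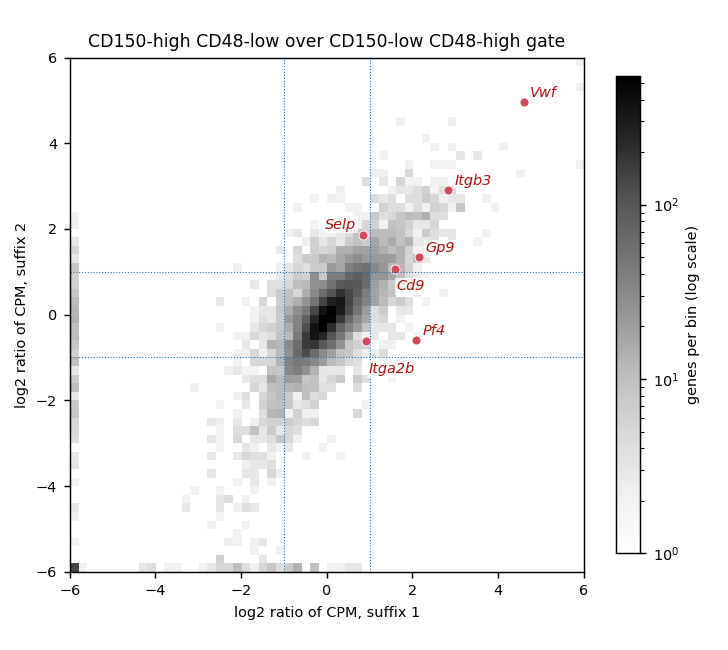
Log2 ratio of CPM in the CD150-high CD48-low gate over the CD150-low CD48-high gate, suffix 1 on the x axis and suffix 2 on the y axis, for 12789 genes as grey bins (log scale of genes per bin, values beyond 6 and genes with 0 UMIs in a gate drawn at the edge) and 7 members as red points, with dotted lines at 2-fold. Vwf and Itgb3 lie far up the diagonal at 4.60 and 4.97 and at 2.83 and 2.91, while Pf4 and Itga2b lie above 0 in suffix 1 and below it in suffix 2.

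Among CD150-high cells, the SLAM gate was set against the CD48-high cells. None of the 7 members was at least 2-fold higher in the SLAM gate than in CD150-high CD48-high cells in both libraries (0.278% of 11505 genes were), and none was 2-fold lower in both (2.61% of genes were). Vwf was 2.32-fold higher (1.60 to 3.36) in suffix 1 and 1.16-fold (1.03 to 1.31) in suffix 2. The Itga2b ratios given above came closest to the 2-fold line on the low side. Gp9 was 1.87-fold higher (1.39 to 2.53) in suffix 1 and at 0.781 (0.613 to 0.993) in suffix 2. Pf4 was at 1.24 (0.929 to 1.64) in suffix 1 and 0.0781 (0.0631 to 0.0959) in suffix 2, or 0.669 (0.509 to 0.877) in suffix 2 without the 3 Pf4-rich cells of the CD150-high CD48-high gate.

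With CD48 kept low, CD150 separated Vwf. It was 7.29-fold higher (3.72 to 15.9) in the SLAM gate than in CD150-low CD48-low cells of suffix 1 and 5.17-fold (4.06 to 6.68) in suffix 2, and it was the 1 member of 7 past 2-fold in both, where 0.694% of 11097 genes were higher and 0.667% lower. This call was lost with centred log ratios of the tags, where Vwf was at 6.95 and 1.47, and the count was 0 to 4 over the alternatives. Itgb3 was at 5.42-fold (2.21 to 16.0) and 1.88-fold (1.47 to 2.43), Selp at 1.77-fold (1.16 to 2.73) and 2.24-fold (1.90 to 2.64). Pf4 again turned its direction, with a ratio of 1.84 (1.28 to 2.67) in suffix 1 and 0.453 (0.344 to 0.594) in suffix 2. The suffix 1 value rested on few cells. Without the 5 highest cells of each gate, Pf4 measured 18.3 CPM against 16.2 in suffix 1 and 10.4 against 29.4 in suffix 2.

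The share of cells with a UMI depends on depth, so each cell was reduced at random to 9000 UMIs, which left out 216 shallower cells and kept 3770. CD150-low CD48-high cells with at least 2 Dntt UMIs (lymphoid-primed cells) served as the level that free RNA in the droplets can give. Their median depth was 20045 UMIs in suffix 1 and 21624 in suffix 2, above that of the SLAM gate. Thinning thus removed a larger part of their UMIs, free RNA included, which can set this reference too low. The size of this effect was not tested. Vwf was detected in 16.7% (11.2 to 23.5) of the thinned SLAM gate cells of suffix 1 and 63.9% (58.7 to 68.9) of those of suffix 2, against 0.5% and 0.515% of Dntt-positive cells. Before thinning the shares were 21.5% and 74.2%, against 1.73% and 2.03%.

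Selp was detected in 14.1% and 67.5% of thinned SLAM gate cells (suffix 1 and suffix 2), against 5.5% and 12.9% of the Dntt-positive cells. Itgb3 was detected in 10.3% and 38.0%, against 0.5% and 2.06%, and Gp9 in 26.3% and 19.8%, against 7% and 6.70%. All of these shares exceeded those of the Dntt-positive cells without overlap of their intervals. Cd9 was detected in 71.2% and 81.8%, and its share in Dntt-positive cells was 23.3% and 32.0%, far above the Vwf share in the same cells. Whether those Cd9 UMIs came from the cells or from free RNA was not tested.

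Pf4 was detected in 16.0% (10.7 to 22.7) of thinned SLAM gate cells of suffix 1 and 10.5% (7.52 to 14.1) of suffix 2, against 3.00% (1.56 to 5.18) and 6.19% (4.00 to 9.06) of Dntt-positive cells. In suffix 2 these intervals overlapped, so the Pf4 share of the SLAM gate there was not separable from the reference at this depth. Before thinning it was 18.6% and 12.8%, against 5.93% and 10.4%. Itga2b was detected in 16.0% and 14.9%, against 3.25% and 6.70%. Gp1bb was detected in 0 of 156 thinned cells of suffix 1, which by 3 counts allows up to 1.92% of cells with a UMI and sets no limit on the share that expresses the gene, and in 1.10% of suffix 2.

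The genes were next counted per cell. After thinning, 21.8% (15.6 to 29.1) of SLAM gate cells of suffix 1 and 65.0% (59.9 to 69.9) of suffix 2 had UMIs of 3 or more of the 8 genes. In CD150-high CD48-high cells the shares were 17.0% and 62.2%, in CD150-low CD48-low cells 4.12% and 32.7%, and in CD150-low CD48-high cells 3.30% and 14.9%. Dntt-positive cells had 0.25% and 2.84%. Every gate of suffix 2 had a higher share than the same gate of suffix 1.

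**Figure D3:**
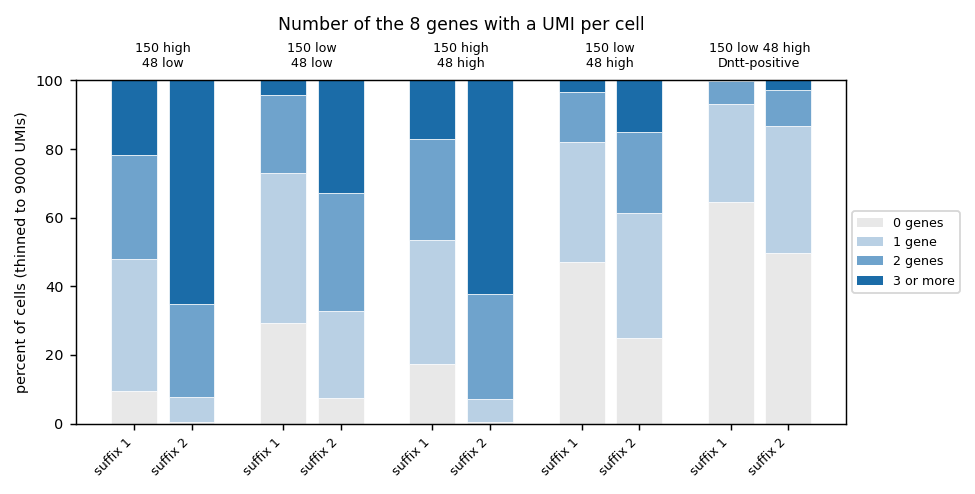
Percent of thinned cells (y axis, from 0) with UMIs of 0, 1, 2 or at least 3 of the 8 genes, as stacked bars for each gate and library. The darkest part reaches 65.0% in the CD150-high CD48-low gate of suffix 2 and 0.25% in Dntt-positive cells of suffix 1.

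Detection of the genes was compared within the cells of the SLAM gate. Over the pairs of members, Spearman correlations across thinned cells lay between -0.15 and 0.16 in suffix 1 (156 cells) and between -0.09 and 0.10 in suffix 2 (363 cells), which are weak values in sparse counts, where missed molecules alone can give values near 0. They do not show whether the genes were made in the same cells. In suffix 2, Selp was detected in 65.5% (59.0 to 71.6) of cells with a Vwf UMI and in 71.0% (62.4 to 78.6) of cells without. In suffix 1, 1 of 26 cells with a Vwf UMI also had Pf4 (3.85%, 0.0973 to 19.6), against 18.5% (12.2 to 26.2) of cells without Vwf. The same pair in suffix 2 gave 10.3% and 10.7%.

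Pf4 stood apart in how its molecules were spread over cells. In the CD150-high CD48-high gate of suffix 2, 5 of 241 cells held 997 of the 1091 Pf4 UMIs (91.4%), and 1 cell held 467. Without these 5 cells the gate measured 22.0 CPM instead of 245. The gate's 5 cells with the most Itga2b held 43.3% of its Itga2b UMIs, and the corresponding share was 16.1% for Cd9, 12.3% for Gp9 and 8.96% for Vwf. Its level of Pf4 therefore rested on a few cells, and its level of Vwf on most of the gate, where 81.7% of cells had a UMI.

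**Figure D4:**
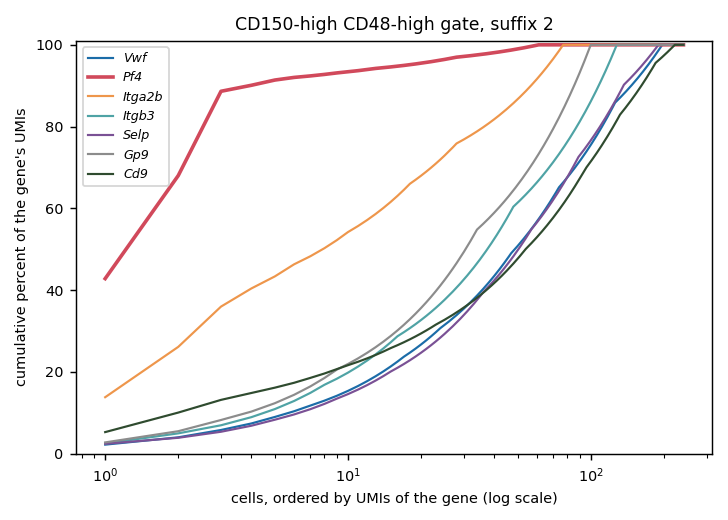
Cumulative percent of each gene's UMIs (y axis) over the cells of the CD150-high CD48-high gate of suffix 2, ordered from the cell with the most UMIs of that gene (x axis, log scale), for 7 members. The Pf4 line is at 42.8% after 1 cell and 91.4% after 5, and the lines of Vwf, Selp and Cd9 rise slowly.

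In all gates together 4 cells had over 100 Pf4 UMIs, with 467, 275, 225 and 130, and all 4 had suffix 2. They held 41.8% of all Pf4 UMIs and 28.1% of the 32 Gp1bb UMIs. Their Itga2b UMIs were 20, 25, 28 and 11, their Cd9 UMIs 44, 40, 26 and 20, and their Treml1 UMIs (TLT-1, a platelet granule receptor) 9, 9, 5 and 4. The stem cell factor receptor gene Kit had 0, 1, 1 and 2 UMIs in them, and Ppbp, Tubb1 and Myl9 had none. Their depth was 30818 to 52210 UMIs, above the gate medians, and a contribution of 2 cells in 1 droplet was not tested. Of these 4 cells, 3 lay in the CD150-high CD48-high gate, and without them its level was 28.7 CPM for Pf4 and 30.1 for Itga2b, while Vwf moved from 113 to 111. None lay in the SLAM gate, where the highest cell had 27 Pf4 UMIs.

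In the SLAM gate the libraries differed most for Vwf, Itgb3 and Selp. There, suffix 2 exceeded suffix 1 by 4.55-fold (3.52 to 5.96) for Vwf, 4.20-fold (2.86 to 6.39) for Itgb3 and 5.51-fold (4.23 to 7.29) for Selp, 3 of 7 members, where 6.66% of 12003 genes were at least 2-fold higher. Pf4 was at 0.527 (0.390 to 0.714) and Gp9 at 0.656 (0.498 to 0.868) of the suffix 1 level. Cd9 was at 1.14 (1.01 to 1.29) and Itga2b at 0.883 (0.615 to 1.28). In the other gates, 4 of 7 members were at least 2-fold higher in suffix 2 in CD150-low CD48-low cells (5.5% of genes), 5 of 8 in CD150-high CD48-high cells (7.6% of genes) and 6 of 8 in CD150-low CD48-high cells (5.06% of genes). Vwf, Itgb3 and Selp were among them in each gate. The last pair of counts includes Gp1bb, from 11 and 2 UMIs (suffix 2 and suffix 1) in CD150-high CD48-high cells and 10 and 2 in CD150-low CD48-high cells, with intervals of 1.26 to 53.5 and 0.609 to 26.8. In CD150-high CD48-high cells, Pf4 was 8.34-fold higher in suffix 2, and at 0.974 (0.758 to 1.25) without the 3 cells with over 100 Pf4 UMIs. Gp1bb was then at 2.15 (0.308 to 23.8), from 4 and 2 UMIs.

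The tag boundaries moved with this difference. When the same boundaries, 161 CD150 tags and 75 CD48 tags, were used in both libraries (a choice made after seeing the data), the SLAM gate held 33 cells of suffix 1 and 614 of suffix 2. Vwf then measured 91.1 CPM (63.8 to 126) in suffix 1 and 117 (110 to 125) in suffix 2, a ratio of 1.29 (0.923 to 1.85) in place of 4.55. In CD150-low CD48-high cells the Vwf ratio became 0.911 (0.593 to 1.40) in place of 3.51, and in CD150-high CD48-high cells 3.02 (2.33 to 3.96) in place of 9.06 (6.89 to 12.1). For Selp the SLAM gate ratio was 2.36 (1.57 to 3.74), for Itgb3 3.51 (1.60 to 9.61), and for Gp9 0.473 (0.313 to 0.744). Pf4 went from 0.527 to 2.75 (1.53 to 5.55), and this rested on 1 cell, which held 467 of the 649 Pf4 UMIs of that gate in suffix 2. Without that cell the ratio was 0.777 (0.424 to 1.58). Whether a tag count means the same amount of protein in both libraries was not tested.

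The SLAM gate was next split into 3 parts by the CLCA3A1 tag within each library, of 60, 55 and 57 cells in suffix 1 and 128, 129 and 126 in suffix 2. Median CLCA3A1 tags were 5, 26 and 105 in suffix 1 and 105, 214 and 338 in suffix 2, so that the lowest part of suffix 2 had the same median as the highest of suffix 1. In suffix 1, Vwf measured 16.2 CPM (8.37 to 28.3), 20.7 (11.6 to 34.1) and 48.3 (34.2 to 66.3) from the lowest to the highest part, from 12, 15 and 38 UMIs. In suffix 2 it measured 125 (108 to 144), 132 (115 to 150) and 136 (120 to 154). The ratio of the highest to the lowest part was 2.98 (1.53 to 6.27) in suffix 1 and 1.09 (0.899 to 1.31) in suffix 2.

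None of the 7 members was 2-fold higher or 2-fold lower in the highest part in both libraries, where 0.212% of 9437 genes were higher and 0.127% lower. In suffix 1, Selp was 2.57-fold higher (1.25 to 5.68), Gp9 1.67-fold (0.966 to 2.96) and Pf4 at 0.249 (0.105 to 0.531). In suffix 2 these ratios were 1.09 (0.914 to 1.30), 0.882 (0.574 to 1.36) and 0.845 (0.538 to 1.33). The Pf4 ratio of suffix 2 turned on 1 cell of the lowest part, which held 27 of that part's 42 Pf4 UMIs, and without it was 2.35 (1.28 to 4.56). Without the 5 SLAM gate cells of each library with the most Pf4, the ratios were 0.478 (0.188 to 1.13) and 1.27 (0.630 to 2.63). Leaving out these cells was chosen after seeing the data. Itga2b was 1.99-fold higher (1.15 to 3.54) in the highest part of suffix 2 and 1.21-fold (0.569 to 2.63) in that of suffix 1. Itgb3 was at 1.75 (0.649 to 5.18) and 1.17 (0.866 to 1.59), and Cd9 at 1.29 (0.992 to 1.69) and 0.936 (0.798 to 1.10).

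**Figure D5:**
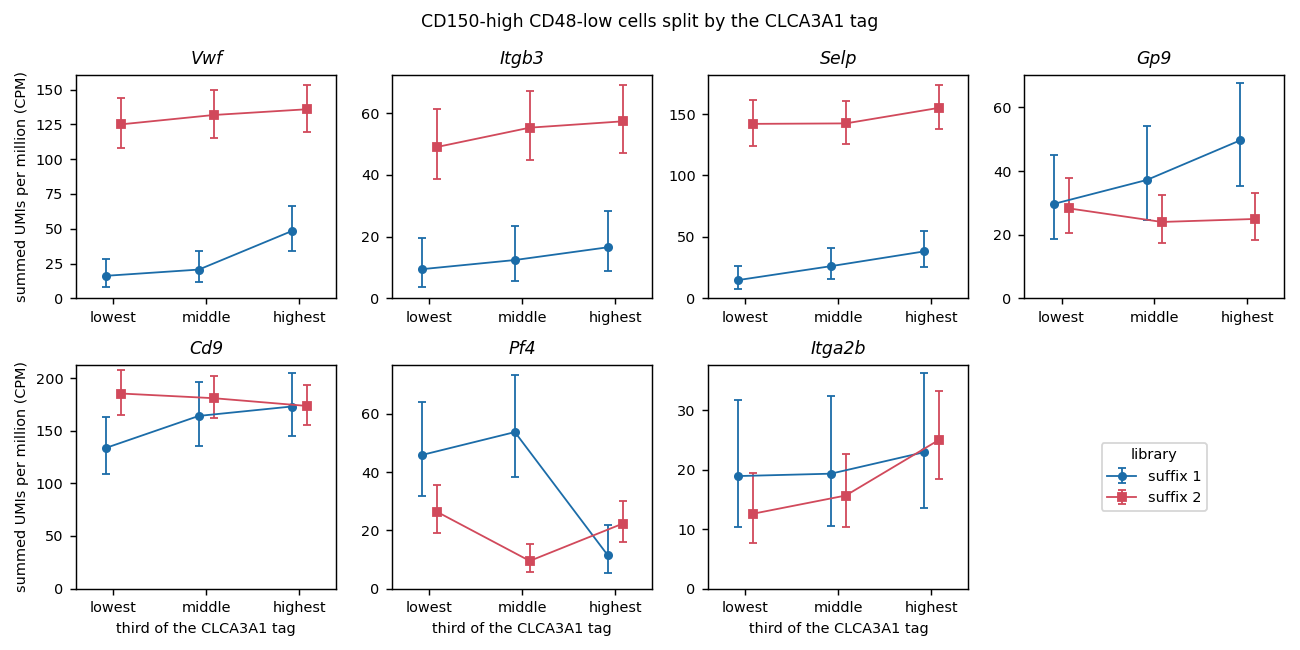
CPM of 7 members (y axis, from 0) in the lowest, middle and highest part of the CLCA3A1 tag within the CD150-high CD48-low gate (x axis), circles for suffix 1 and squares for suffix 2, bars for 95% Poisson intervals. In suffix 1, Vwf goes from 16.2 to 48.3 CPM and Pf4 from 45.9 to 11.4, and in suffix 2 the Vwf values lie between 125 and 136.

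The CD150 tag moved with the CLCA3A1 tag. Its median was 113, 122 and 443 tags over the CLCA3A1 parts of suffix 1 and 685, 779 and 906.5 in suffix 2. Split by the CD150 tag itself, the highest of 3 parts exceeded the lowest 5.73-fold (2.69 to 14.0) for Vwf, 4.06-fold (1.32 to 16.6) for Itgb3, 3.61-fold (1.70 to 8.55) for Selp and 2.87-fold (1.60 to 5.4) for Gp9 in suffix 1. In suffix 2 the values were 1.60 (1.31 to 1.95), 1.31 (0.973 to 1.77), 1.04 (0.870 to 1.25) and 0.846 (0.549 to 1.31). Pf4 in the highest CD150 part was at 0.331 (0.179 to 0.585) and 0.271 (0.153 to 0.462) of its level in the lowest, a difference that rested in part on few cells. In suffix 1, 5 cells held 42 of the gate's 82 Pf4 UMIs, and without them the ratio was 1.02 (0.481 to 2.20). In suffix 2, 1 cell held 27 of the lowest part's 58, and without it the ratio was 0.504 (0.269 to 0.920). Among cells above the median of the CD150 tag, the CLCA3A1 ratio for Vwf in suffix 1 was 2.37 (0.989 to 6.88), and among those below it 1.01 (0.0995 to 5.64), the latter from 11 and 40 cells.

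Other platelet genes, taken from 4 lists, were set beside the members in the comparison of the SLAM gate with CD150-low CD48-high cells. Over all genes 6.19% were higher and 6.29% lower in it. Of 14 receptors, 11 had enough UMIs, and 2 were at least 2-fold higher in both libraries and none lower. P2rx1, an ATP-gated channel, was among those higher (3.37-fold and 2.21-fold). The median ratio of the list was 1.57 in suffix 1 and 1.10 in suffix 2. Gp5, a partner of Gp9 and Gp1bb in the same receptor, was at 4.10 in suffix 1 and 0.378 in suffix 2. The GPIbα gene Gp1ba was at 2.85 (0.661 to 9.61) and 0.837 (0.291 to 1.98), from 4 and 6 UMIs in the SLAM gate.

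Of 9 granule and matrix genes, 8 had enough UMIs, 4 were higher and 1 lower (6.19% and 6.29% of all genes). Mmrn1, which encodes the factor V carrier multimerin, was 7.92-fold and 6.39-fold higher, Timp3 (a metalloproteinase inhibitor) 8.77-fold and 12.7-fold, and Serpine2 and F5 (coagulation factor V) were also higher, F5 from 10 and 9 UMIs in the SLAM gate. F13a1, the A chain of factor XIII, was lower, with 1 and 0 UMIs there against 33 and 150 in CD150-low CD48-high cells. The list had a median ratio of 2.23 and 2.53.

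Of 12 genes of the platelet cytoskeleton and its formation, 9 had enough UMIs, 3 were higher and none lower (6.19% and 6.29% of all genes). Cavin2, a caveolar coat protein, had the largest ratios of the list, 143 (53.5 to 539) and 25.5 (22.2 to 29.4), from 73 UMIs in the SLAM gate and 4 in the CD150-low CD48-high gate of suffix 1, and 1089 and 250 in suffix 2. Rab27b, a GTPase of granule secretion, was 6.17-fold and 2.72-fold higher, and Tbxas1, thromboxane synthase, 3.51-fold and 2.65-fold. Plek, which encodes pleckstrin, was at 0.258 and 0.532, and the median over the list was 1.28 and 1.36. Of 18 partners and relatives of the members, 17 were found, 13 had enough UMIs, 1 was higher (the tetraspanin Cd63, 2.16-fold and 2.49-fold) and 3 were lower, the tetraspanins Cd37 and Cd53 among them. The 1 of 13 higher is near the share over all genes. Cd81, which associates with Cd9, was at 1.35 and 1.70. Within the tetraspanin family the genes thus lay on both sides of 1.

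The genes most like 3 of the members over the 8 points of gate and library were listed among 9274 genes with at least 500 UMIs, by Pearson r of log2(CPM + 10). The points share libraries and tag boundaries, so r is a description. Vwf was most like Slamf1 (r = 0.996), which encodes CD150 itself and measured 16.9 and 64.2 CPM in the SLAM gate, followed by Ifitm7, Prcp, Rasgef1b and C530008M17Rik (r from 0.988 to 0.995). Cd9 was most like Rab27b (r = 0.994), then Rnf125, Ppic, Nadk2 and Scarf1. Itga2b was most like Muc13 (r = 0.961), then Osgepl1, Nupl2, Lrrc58 and Mif4gd. Among the members, Vwf was nearest to Itgb3 (r = 0.957) and Selp (r = 0.905) and farthest from Itga2b (r = 0.422).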

How the data were processed

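RNA was counted with Chromium 3′ v3 chemistry, and the authors made the deposited UMI counts with Cell Ranger 3.1.0 (build mm10, GRCm38, per the submitters' processing notes) and its aggregation step, which evens out depth between libraries. The deposited tag values are log10 counts per antibody from CITE-seq-Count, and 10 to that power was used. The members and gene lists were chosen with earlier results of these data known. The methods' cell filter was applied here, and no doublet caller was run, so doublets were not removed. UMIs were summed over cells per gate and suffix (Python 3.11.15, numpy 2.4.6, pandas 2.3.3, scipy 1.17.1). Kept cells with tags held 27073429 UMIs in suffix 1 and 43434366 in suffix 2. The ratio calculation was tested on simulated data with known folds. Genes with at least 10 UMIs over the compared cells (in each library for a comparison of gates or tag parts, summed over both for a comparison of libraries) entered each background, and 2-fold in both libraries was the limit. Named genes were the 8 members, up to 4 highest and 2 lowest of each list, the genes of a count of 5 or fewer (some are not reported here), Gp5, Gp1ba and Cd81 as partners of members (chosen after their values were seen), and the 5 genes most like Vwf, Itga2b and Cd9. Alternatives changed the cell filter, tag percentiles, tag scaling, averaging, thinning, fold and count limits. Gene positions are from GENCODE on GRCm38. No age comparison was run, because no label ties a suffix to an age.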

Additional observations from a re-analysis of the deposited data

Results flagged for a closer look

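For 3 members the direction of a SLAM gate ratio was opposite in the 2 libraries with intervals that did not include 1 in either, and this difference between libraries was not tested. Pf4 in the SLAM gate was at 4.23 of its CD150-low CD48-high level in suffix 1 and 0.664 in suffix 2, and at 1.84 and 0.453 of its CD150-low CD48-low level. Without the 5 highest cells of each gate, Pf4 in the SLAM gate of suffix 1 measured 18.3 CPM, against 7.41 and 16.2 in these 2 gates. In suffix 2 it then measured 10.4 CPM, against 20.9 and 29.4. Itga2b was at 1.89 and 0.650 of its CD150-low CD48-high level. Gp9 was at 1.87 and 0.781 of its CD150-high CD48-high level. With the same tag boundaries in both libraries, the ratios to the CD150-low CD48-high gate were 2.20 and 4.90 for Pf4 (1.38 in suffix 2 without 1 Pf4-rich cell) and 1.09 and 1.01 for Itga2b, no longer opposite. The Pf4 ratios to the CD150-low CD48-low gate were then 2.49 and 1.69 (0.476 without that cell), and Gp9 stayed on both sides of 1, at 1.79 and 0.948. In suffix 1 these ratios rested on few UMIs. The SLAM gate, with 33 cells, held 6 for Itga2b, 11 for Pf4 and 25 for Gp9, and the CD150-low CD48-low gate held 3 for Pf4.

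The 620 cells that failed the filter (172 of suffix 1 and 448 of suffix 2) also carried member UMIs. The values that lay above the CPM of the kept cells of the same suffix, beyond the intervals, are these. Vwf measured 18.1 CPM in suffix 1 and 91.5 in suffix 2, Itga2b 40.6 and 64.1, and Selp 32.7 and 106. In suffix 2, Itgb3 measured 48.1 CPM, Gp9 22.6 and Cd9 149. Pf4 lay lower there in suffix 2, at 25.5 CPM against 50.8 in kept cells, a gap that rested on few cells. Without the 5 kept cells with the most Pf4, the kept cells of suffix 2 measured 24.8 CPM. Gp1bb had 0 and 1 UMIs in the cells that failed the filter, in suffix 1 and suffix 2.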

How the results depend on the processing

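Over 60 member ratios and 16 alternative settings, 806 values were recomputed. The limits of 1.5-fold and of at least 30 UMIs change calls and no ratio, so the 60 values under each could not move. Of the 806 values, 620 stayed within the main value's counting interval, 176 moved, and 10 that had been past 2-fold turned direction. A further 61 values, under 2-fold or on too few UMIs as reported, also changed their side of 1, among them Pf4 and Itga2b against the CD150-low CD48-high gate in suffix 2 with the same tag boundaries (4.90 and 1.01). The count of 4 members higher against the CD150-low CD48-high gate was 3 to 6 over the settings, and Vwf and Itgb3 were among them in each but the strict cell filter, where they had too few UMIs. Requiring over 2500 genes and under 5% mitochondrial UMIs left 20 and 37 SLAM gate cells, and against the CD150-high CD48-high gate Vwf in suffix 1 became 0.627, Pf4 in suffix 2 28.0 and Gp1bb in suffix 2 3.20. Pf4 against the CD150-low CD48-low gate in suffix 2 became 52.8, and the count of members higher was 4 there and 1 (Itga2b) over the CLCA3A1 parts. With both tags split at the 50th percentile the counts of members higher were 2 (Vwf and Itgb3) against CD150-high CD48-high, 4 against CD150-low CD48-low and 1 (Vwf) over the CLCA3A1 parts. Gp1bb then became 1.25, Pf4 1.74 against CD150-low CD48-low in suffix 2, and Pf4 1.01 over the CLCA3A1 parts in suffix 1. Gp1bb against CD150-high CD48-high in suffix 2 also became 1.04 without the 10% of cells with the most UMIs and 1.03 without the 5 cells with the most UMIs of the gene. Centred log ratios of the tags gave 1 member higher (Vwf) against CD150-high CD48-high and 0 against CD150-low CD48-low. The mean over cells gave 2 against CD150-low CD48-low. A limit of 1.5-fold gave 3 there and 1 lower (Itga2b) against CD150-high CD48-high. CLCA3A1 parts set over both libraries gave 1 lower (Pf4). The same tag boundaries in both libraries, added after seeing the data, gave 1 lower (Itga2b) against CD150-high CD48-high, 3 higher against CD150-low CD48-low, and Pf4 at 1.69 in suffix 2. Without thinning, 35.5% and 80.9% of SLAM gate cells had 3 or more genes. Without the 4 cells with over 100 Pf4 UMIs, left out after seeing the data, Pf4 in suffix 2 was at 0.613, 0.730 and 0.476 of the CD150-low CD48-low gate in place of 52.8, 1.74 and 1.69, and at 0.325 of the CD150-high CD48-high gate in place of 28.0. The cause of the other changes was not tested. No paired analysis was possible because each group had 1 library and the ratios came from no test.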

Other observations

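The 82 kept cells without tags, which entered no gate, had 2 Vwf UMIs (2.33 CPM, 0.282 to 8.4) and 43 Pf4 UMIs (50.0 CPM, 36.2 to 67.4). Among the kept cells with tags, the CPM of Vwf was 22.0 and that of Pf4 37.2 over both libraries. Of those Pf4 UMIs, 41.8% lay in the 4 cells with over 100 Pf4 UMIs, so this Pf4 level rested in part on few cells.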
